A study of Rattus norvegicus with 36 samples.

Results

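Ttr, the gene of transthyretin, was followed in RNA sequencing of the rat nucleus accumbens as 1 gene ID (ENSRNOG00000016275) of 31546 in the count tables. It was chosen by that ID, which was paired with the symbol beforehand, since the tables themselves hold IDs without names. The samples came from 9 Sprague-Dawley rats aged 8 weeks, 3 in each of 3 groups. Vulnerable and Non Vulnerable rats, named here by their phenotype label, both had 4 injections of cocaine, at 20 mg/kg given intraperitoneally in place preference conditioning. Saline rats had 4 injections of physiological serum on the same alternating schedule. The series separates rats that came to express a preference for the cocaine-paired compartment from rats that did not, and no sample label states which of these Vulnerable stands for. Every rat gave 4 technical replicate libraries, 36 in all, which were summed, so n = 3 per group. No source used here says how the cocaine rats were assigned to a phenotype, or whether rats of a group shared a cage or litter.

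Transthyretin is a secreted carrier protein that binds thyroxine and, through retinol-binding protein, vitamin A. In the brain its messenger RNA is made mainly in the epithelium of the choroid plexus, the tissue that lines part of the ventricles and secretes cerebrospinal fluid, while the liver makes the transthyretin of blood. The accumbens lies close to the lateral ventricle, which holds choroid plexus. In the RefSeq annotation of assembly GRCr8, Ttr lies between the protein-coding genes Dsg2, a desmosomal cadherin, and B4galt6, a galactosyltransferase. No source used here names the build behind the counts, and no coordinates are printed. The tissue label names the accumbens, while the extraction protocol also names the caudate putamen.

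Total counts per rat ran from 41213813 to 64081679. Other markers of choroid plexus epithelium, ependyma, meninges, blood vessels, blood or striatal neurons could not be read, because 0 of 91 listed symbols could be paired with an ID of the tables. Whether Ttr reads came from choroid plexus was therefore not tested, and the labelled tissue could not be checked by its own markers. In these bulk samples, more cells of a type and more Ttr RNA per cell cannot be told apart.

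Ttr was abundant in a single rat, Non Vulnerable rat 2, and scarce in the other 8. That rat had 67890 Ttr counts, or 1392 CPM (counts scaled to a common library total after TMM, the trimmed mean of M values), with a 95% counting interval of 1381 to 1402. Ttr took 0.137% of its counts and was the gene with rank 37 of all gene IDs by count. In the other 8 rats its rank lay between 8730 and 17564. These intervals are exact Poisson intervals and cover counting error only, since reads without molecular identifiers are not independent molecules.

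The other Non Vulnerable rats had 63 counts (1.39 CPM) for rat 1 and 127 counts (3.14 CPM) for rat 3. Vulnerable rats 1 to 3 had 25, 144 and 83 counts, or 0.485, 2.83 and 1.24 CPM. Saline rats 1 to 3 had 2, 55 and 732 counts, or 0.0396, 1.32 and 15.8 CPM. All 3 groups therefore overlapped in level, and Saline held both the lowest rat of the study and the second highest.

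Non Vulnerable rat 2 exceeded Saline rat 3, the next in order, by 88.3-fold (counting interval 82.1 to 95.1). It exceeded the other rats of its own group by 443-fold (rat 3; interval 372 to 531) and 998-fold (rat 1; interval 780 to 1299). Against Saline rat 1, with 2 counts, the ratio was 35179 with an interval of 9738 to 290488. As a share of the level in Non Vulnerable rat 2, Ttr stood at 1.13% in Saline rat 3 and at 0.00284% to 0.226% in the remaining 7 rats.

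**Figure D1:**
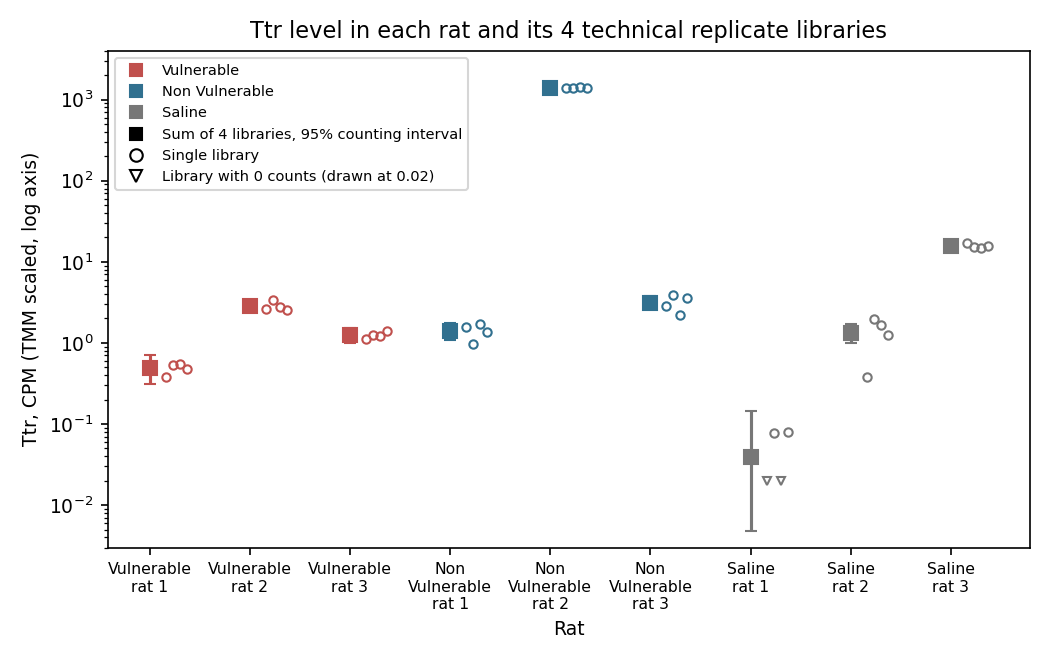
Ttr level (CPM, log axis) in each of the 9 rats, coloured by group. Squares are the sum of 4 libraries with a 95% counting interval, open circles the single libraries and triangles libraries with 0 counts; Non Vulnerable rat 2 sits at 1392 CPM, Saline rat 3 at 15.8 and the other rats between 0.0396 and 3.14.

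Below these 2 rats, the order of the levels did not follow the groups. Saline rat 1 was lowest, followed by rats 1 and 3 of the Vulnerable group, then Saline rat 2, rat 1 of the Non Vulnerable group, Vulnerable rat 2 and finally Non Vulnerable rat 3. Neighbours in the order whose ratio had a counting interval that held 1 were Vulnerable rat 3 and Saline rat 2 (1.06-fold, interval 0.742 to 1.51), and Saline rat 2 and Non Vulnerable rat 1 (1.06-fold, interval 0.725 to 1.55). The same was true of Vulnerable rat 2 and Non Vulnerable rat 3 (1.11-fold, interval 0.868 to 1.42). Saline rat 1 lay below Vulnerable rat 1 by 12.3-fold (interval 3.06 to 107), and Vulnerable rat 1 below Vulnerable rat 3 by 2.56-fold (interval 1.62 to 4.17). Saline rat 3 lay above Non Vulnerable rat 3 by 5.02-fold (interval 4.15 to 6.10). Rats thus differed beyond counting error inside every group.

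The technical replicates showed that the high level was present in each library of Non Vulnerable rat 2. Its libraries a to d held 17089, 16932, 17223 and 16646 Ttr counts. Those of Saline rat 3 held 203, 180, 169 and 180, and those of Saline rat 1 held 0, 1, 0 and 1. Library totals fell from a to d in every rat, and whether the libraries of a rat were separate preparations was not tested. A chi-square statistic was given a multinomial p from 100000 draws, adjusted by Benjamini-Hochberg over 9 rats. In 7 rats it called no difference between libraries beyond counting noise (adjusted multinomial p 0.339 to 0.921). It could hardly show a difference in Saline rat 1, with 2 counts in all. In Non Vulnerable rat 2 the libraries did differ (chi-square per degree of freedom 4.62, adjusted p = 0.0291), although the highest had only 1.03 times as many counts as the lowest. In Saline rat 2, with 4, 21, 17 and 13 counts, the statistic per degree of freedom was 3.89 (adjusted p = 0.0406). A statistic this large was met by 0.324% and 0.96% of the genes with at least 40 counts in those 2 rats. Set beside the ratios between rats, these differences between libraries were small in Non Vulnerable rat 2 and up to 5.25-fold in raw counts in Saline rat 2.

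Group means of Ttr were 1.52 ± 1.20 CPM in Vulnerable, 465 ± 802 in Non Vulnerable and 5.71 ± 8.73 in Saline rats (SD, n = 3). The SD exceeded the mean in both Non Vulnerable and Saline rats. Medians were 1.24, 3.14 and 1.32 CPM. Without rat 2 the Non Vulnerable mean was 2.27 ± 1.24 CPM (SD, n = 2), and without rat 3 the Saline mean was 0.679 ± 0.904 (SD, n = 2). On the log2 CPM scale, with a prior count of 2, the means were 0.32 ± 1.23 in Vulnerable, 4.21 ± 5.43 in Non Vulnerable and 0.26 ± 3.81 in Saline rats (SD, n = 3).

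The spread of Ttr between rats of a group was among the widest of the 16029 genes tested. In Non Vulnerable rats no gene had a larger SD of log2 CPM than its 5.43, where the median over genes was 0.171. In Saline rats 1 gene exceeded its SD of 3.81 (median over genes 0.137), and in Vulnerable rats 251 genes exceeded 1.23 (median over genes 0.142). The biological coefficient of variation that edgeR fitted was 1.56 for Ttr against a median of 0.138, and 3 genes had a larger one.

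Vulnerable rats were compared with Non Vulnerable rats to ask whether accumbens Ttr differed between animals given the same cocaine schedule. Ttr was lower in Vulnerable rats, at -8.27 on the log2 scale (SE 2.77, edgeR quasi-likelihood test over all 9 rats, adjusted p = 0.0492), just inside the threshold of 0.05. Of all genes tested, 31.5% passed in this comparison in either direction and 16.4% as lower in Vulnerable rats. Ttr had the change of rank 2 by size but of rank 5015 by p. The groups overlapped, since Non Vulnerable rat 1 lay below Vulnerable rat 2.

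That difference rested on Non Vulnerable rat 2. Without it the fitted difference shrank to -0.58 (SE 1.55, edgeR adjusted p = 0.813). Of 21 other settings that gave a p, 16 left Ttr above the threshold. Among them were 3 other scalings of the libraries, with log2 fold changes of -8.24, -8.22 and -8.22 and edgeR adjusted p of 0.0508, 0.0536 and 0.0514. Their unadjusted edgeR p for Ttr was 0.0156, 0.0145 and 0.0158, against 0.0154 in the main fit. They called 4888, 4178 and 4865 genes, against 5050 in the main fit. The limma voom fit, which averages log values, gave -4.11 (SE 3.97, adjusted p = 0.454).

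DESeq2 with its default settings gave no p for 10 of the 16029 genes, Ttr among them, because it withholds the p of genes with an outlying count. With that rule switched off, an alternative chosen after seeing the data, its log2 fold change for Ttr was -8.23 (SE 2.17) and its adjusted p 0.000928. An exact two-sided permutation test of the mean log2 CPM gave a difference of -3.89 with p = 0.2 (0.6 adjusted over the 3 pairs of groups). The smallest p that 3 rats against 3 allow is 0.1.

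Non Vulnerable rats did not differ from Saline rats in Ttr at the threshold, at 6.35 on the log2 scale (SE 2.50; adjusted p = 0.116 in edgeR), although no gene had a larger fitted change. In this comparison 14.7% of genes passed. Without Non Vulnerable rat 2 the sign turned, to -1.33 (SE 1.60, edgeR adjusted p = 0.647), and without Saline rat 3 the value was 9.50 (SE 3.47, edgeR adjusted p = 0.11). The exact permutation test gave p = 0.4 (0.6 adjusted), with overlapping groups.

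Vulnerable rats also showed no difference from Saline rats in Ttr that passed, with a fitted log2 difference of -1.92 (SE 2.39, edgeR adjusted p = 0.922). In this comparison 0% of genes passed in edgeR, 807 genes had an unadjusted p under 0.05, limma voom called 0 genes and DESeq2 called 30. Without Saline rat 3, the second highest rat, the value was 1.27 (SE 3.30, edgeR adjusted p = 0.941), and limma voom gave 0.33 (SE 5.44, adjusted p = 0.996). The exact permutation test gave p = 1, and Saline rats lay on both sides of the Vulnerable rats.

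The mean of both cocaine groups exceeded Saline by a log2 value of 2.21 (SE 2.06, edgeR adjusted p = 0.808), which did not pass. Here too 0% of genes passed in edgeR, with 1391 at an unadjusted p under 0.05, 0 called by limma voom and 110 by DESeq2. Without Non Vulnerable rat 2 the value was -1.62 (SE 1.22, edgeR adjusted p = 0.839). A test for any difference among the 3 groups gave Ttr an edgeR adjusted p of 0.0595, where 21.3% of genes passed. Leaving out Non Vulnerable rat 1 gave 0.0257, and leaving out rat 2 of that group gave 0.60. The comparisons share groups, so their values are not independent of each other.

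**Figure D2:**
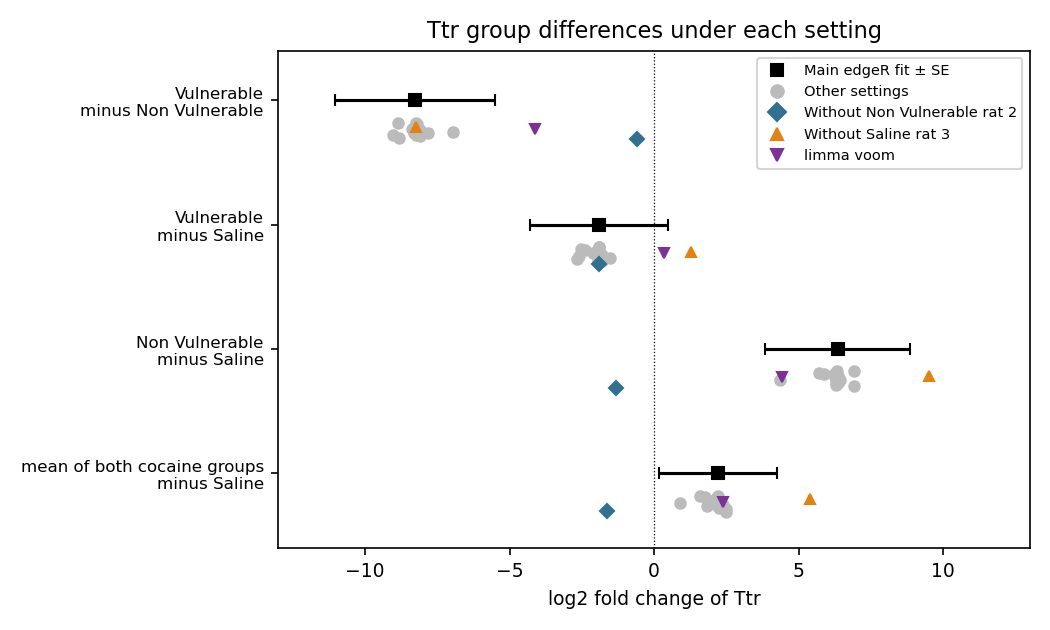
Log2 fold change of Ttr in 4 group comparisons. Black squares are edgeR fits over all 9 rats with the SE, and the other points are alternative settings, without DESeq2's default fit; leaving out Non Vulnerable rat 2 moves Vulnerable minus Non Vulnerable from -8.27 to -0.58, and Non Vulnerable minus Saline from 6.35 to -1.33.

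Genes whose level was most like that of Ttr were sought over the 9 rats, among 13726 other genes with a mean of at least 1 CPM. They were picked for their likeness, so the correlations describe them and carry no test, and all points share the position of Non Vulnerable rat 2. Without symbols, only the 2 most alike are given, by ID. ENSRNOG00000039668 had a Pearson r of 0.941 with Ttr on the log2 CPM scale and a Spearman rho of 0.867. It stood at 8.26 CPM in Non Vulnerable rat 2 and between 0.257 and 0.646 CPM in the others, with 0.646 in Saline rat 3 (30 counts) and 0.643 in Non Vulnerable rat 3 (26 counts). It thus met the minimum mean of 1 CPM only through Non Vulnerable rat 2, so nothing is read from its place. ENSRNOG00000016967 had an r of 0.935 and a rho of 0.85, with 3.83 CPM in Non Vulnerable rat 2, 1.85 in Saline rat 3 and 0.941 to 1.44 in the other 7. Without Non Vulnerable rat 2 their r was 0.81 and 0.752. An r of at least 0.9 was found for 5 genes over all 9 rats and for 3 genes without that rat, and 0 genes were in both lists.

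Ttr was not the only gene that stood out in Non Vulnerable rat 2. Thresholds chosen after seeing the data asked for at least 50 counts in the highest rat and at least 4 times the level of the next rat, with rats under 3 counts set to 3. Of 14417 gene IDs with enough counts, 35 met this in Non Vulnerable rat 2, Ttr included. In each of the other 8 rats the number was 0 or 1. At 8-fold or more there were 22 in Non Vulnerable rat 2, and at most 1 in any other rat. With at least 200 counts required, 28 gene IDs passed at 4-fold and 19 at 8-fold, and 0 in any other rat.

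**Figure D3:**
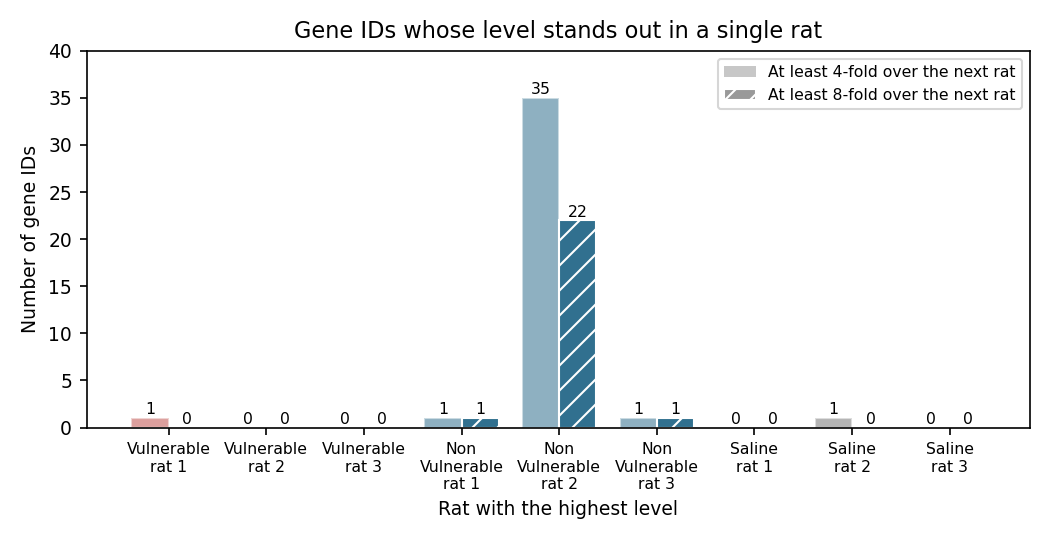
Number of gene IDs whose level in 1 rat was at least 4-fold (pale bars) or 8-fold (hatched bars) that of the next rat, by the rat with the highest level, coloured by group. Non Vulnerable rat 2 has 35 and 22 such IDs and every other rat has 0 or 1.

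The 21 other gene IDs at 8-fold or more were far less abundant than Ttr, between 1.17 and 47.1 CPM in Non Vulnerable rat 2, with a median of 15.2. Together they took 0.0337% of its counts against 0.137% for Ttr. Saline rat 3 was the next highest rat for 9 of the 21, Non Vulnerable rat 3 for 5, Saline rat 2 for 2 and each remaining rat for 1. Counts summed over the 21 IDs were only 502 in Saline rat 3 and 213 to 427 in the 7 other rats. Which rat came next was thus open to counting error. No share over all gene IDs was taken, so nothing is read from which rat came next, here or at 4-fold. Over these IDs, the level in Saline rat 3 was a median of 2.42% of that in Non Vulnerable rat 2, and the middle level of the 7 other rats was a median of 0.826% of it. For Ttr itself Saline rat 3 stood at 1.13%. Over all 34 other IDs at 4-fold or more, Saline rat 3 was the next highest for 10, Non Vulnerable rat 3 for 8 and Vulnerable rat 1 for 6, and the medians were 5.37% for Saline rat 3 and 3.54% for the 7 other rats. Summed over the 21 IDs, levels were 343 CPM in Non Vulnerable rat 2, 10.8 in Saline rat 3 and 10.6 in Non Vulnerable rat 3. The remaining 6 rats lay between 4.18 and 7.80 CPM, with Saline rat 1, lowest in Ttr, at 4.67 and Vulnerable rat 2 lowest. Summed over the 34 IDs, Saline rat 3 was not second: it stood at 41.6 CPM, beside 42.3 in Non Vulnerable rat 1, 42.2 in Non Vulnerable rat 3 and 41.7 in Saline rat 2, with 575 in Non Vulnerable rat 2. What these IDs encode is not known from the tables, and their part in the Ttr result was not tested.

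**Figure D4:**
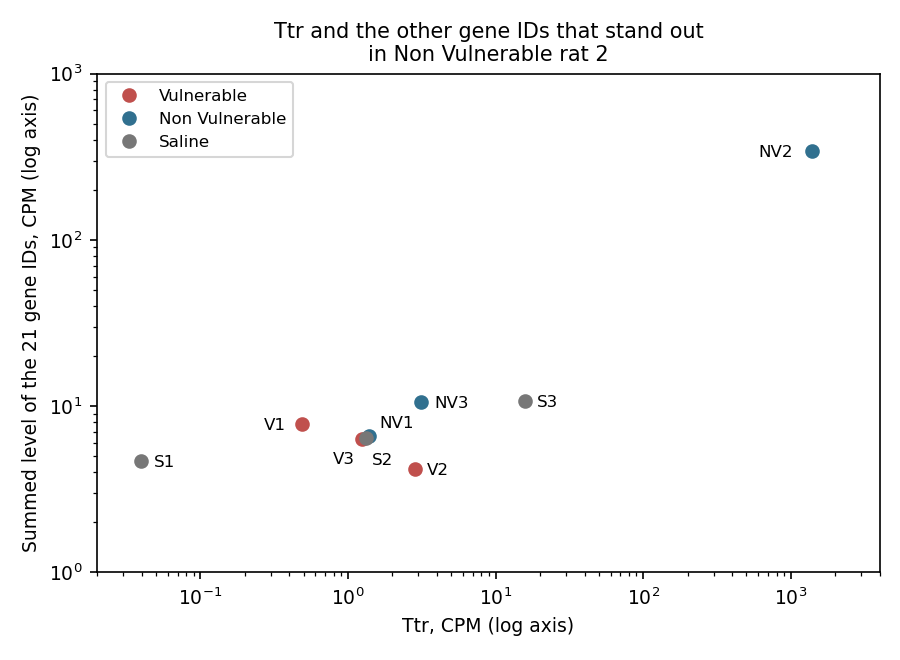
Ttr level against the summed level of the 21 other gene IDs that were at least 8-fold higher in Non Vulnerable rat 2 than in any other rat (CPM, both axes log). Each point is a rat (V, Vulnerable; NV, Non Vulnerable; S, Saline); the IDs were picked for their level in NV2, at 343 CPM, while the other rats sum to between 4.18 and 10.8 CPM.

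Of the 34 other gene IDs at 4-fold or more, 21 passed the filter on low counts, which asks for counts in about as many rats as a group holds, and 13 did not. Of those 21, 6 were called between the cocaine groups with the lower level in Vulnerable rats, where 16.4% of all genes were called in that direction. Without Non Vulnerable rat 2, 0 of the 21 kept by the filter were called in edgeR and 2 had an unadjusted p under 0.05, where 17.3% of all genes tested were called. The IDs were picked for their level in that rat, so nothing is read from either share.

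Inside groups, no gene followed Ttr at the threshold in the fit over all 9 rats. A slope on log2 CPM of Ttr, fitted in edgeR beside the group means, was called for 0 of 16028 genes (0%; smallest adjusted p = 0.528), with 672 at an unadjusted p under 0.05, where 5% of the genes tested is 801. The limma voom fit called 0. With no filter on low counts 6 of 22960 genes were called, all with a positive slope. All 6 were among the 21 IDs at 8-fold or more. Those 21 IDs were picked for their level in Non Vulnerable rat 2, which was also highest in Ttr. Nothing is therefore read from the overlap or the sign. With 1 rat left out, 0 to 2 genes were called. ENSRNOG00000039107, with 2083 counts in Non Vulnerable rat 2 and 34 in Saline rat 3, was called with a positive slope in 7 of these 9 fits. The filter on low counts kept it in those 7, and dropped it with all rats in and when either of these rats was left out. All 7 fits hold both rats, which were the 2 highest in Ttr, so the calls are not independent of each other. Without Non Vulnerable rat 2, 1 gene was called, ENSRNOG00000039754, with a slope of -0.31 (edgeR adjusted p = 0.0141). Among the rats left in that fit, Ttr spread most in Saline, where rat 1 had 2 counts. On the log2 CPM scale of the main fit, the SD was 3.81 in Saline and 1.23 in Vulnerable rats. It was 0.813 in Non Vulnerable rats without rat 2. Both IDs were singled out after their values were seen.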

How the data were processed

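Per the labels' protocols, polyA RNA went into stranded libraries. Per the submitters' processing notes, bcl2fastq 2.17.1.14, STAR and HTSeq 0.5.3 were used; build, annotation and strandedness of the counts are not stated there. Each library's deposited table held raw read counts per gene ID, as whole numbers. Technical replicates were summed per rat; no libraries were identical. The main test was edgeR's (version 4.0.16, R 4.3.3): filterByExpr (16029 genes), TMM, glmQLFit (robust) with a coefficient per group, and Benjamini-Hochberg adjustment over all genes. CPM used TMM-scaled library sizes, and log2 CPM a prior count of 2. SE came from the quasi-likelihood F statistic. Alternatives used limma 3.58.1, DESeq2 1.42.0, other scalings, no filter, a replicate block, single technical replicates and each rat left out. The fits were also run on simulated counts with planted group differences and slopes on Ttr. No change as large as that of Ttr in a single rat was planted, and no result here rests on that run. Exact permutation tests used scipy 1.17.1. By rule, Ttr and the gene IDs most like it were named. ENSRNOG00000039107 and ENSRNOG00000039754, from alternative slope fits, were named outside that rule. The gene and the lists were chosen with earlier results of these data known. The labels number the rats within a group. The p-values of the group comparisons and of the slope on Ttr rest on the spread between these rats. Those of the technical replicates set the libraries of 1 rat against counting noise.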

Additional observations from a re-analysis of the deposited data

Results flagged for a closer look

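The change of Ttr from Saline was not the same in Vulnerable as in Non Vulnerable rats by the test of that difference, at a log2 value of -8.27 (SE 2.77, edgeR adjusted p = 0.0492). The Saline level cancels in it, so this repeats the test between the cocaine groups, and 2 of 3 Non Vulnerable rats lay within or near the Vulnerable range of 0.485 to 2.83 CPM, at 1.39 and 3.14 CPM. Without Non Vulnerable rat 2 the value was -0.58 (edgeR adjusted p = 0.813). In no rat did a single technical replicate stand apart from the other 3 in Ttr level by Dixon's test at the 95% level. With 4 values per rat that test can show only a wide gap, and Saline rat 1 had 2 counts in all. The chi-square statistic did call differences between the libraries of Non Vulnerable rat 2 (adjusted multinomial p = 0.0291) and of Saline rat 2 (adjusted multinomial p = 0.0406).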

How the results depend on the processing

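The lower Ttr of Vulnerable than Non Vulnerable rats kept its sign in all 21 alternatives that gave a p and passed the threshold in 5 of them. With all rats kept it no longer passed at log2 fold changes of -8.24 (median-of-ratios scaling), -8.22 (library totals alone), -8.22 (TMM without the 10 most counted genes), -8.27 (no filter on low counts), -4.11 (limma voom), -8.22 (only the groups compared), and -8.38, -8.09 and -8.29 (technical replicates a, b and d alone). With 1 rat left out it ran from -9.03 to -0.58, and edgeR adjusted p from 0.0215 to 0.813, passing without Non Vulnerable rat 1, Non Vulnerable rat 3 or Saline rat 3. Vulnerable minus Saline turned to 0.33 in limma voom and ran from -2.68 to 1.27 with a rat left out, the last without Saline rat 3. Non Vulnerable minus Saline ran from -1.33 (without Non Vulnerable rat 2) to 9.50 (without Saline rat 3), and passed at 6.33 in DESeq2 without its rule on outlying counts (adjusted p = 0.0193). The mean of both cocaine groups minus Saline ran from -1.62 (without Non Vulnerable rat 2) to 5.39. For any difference among the groups, edgeR adjusted p ran from 0.0257 to 0.60. Genes called by the slope on Ttr numbered 6 with no filter and 0 to 2 with a rat left out. DESeq2's default gave no p, and the cause of the other changes was not tested.

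With the rat number as a replicate block, Vulnerable minus Non Vulnerable was -6.96 (edgeR adjusted p = 0.118), and 5160 genes were called against 5050. The numbers do not pair the rats by any label. Deviations of same-numbered rats correlated at -0.137 to 0.19, and 4 of 9 rats were most alike to their own number. No share by chance was taken beside that count, so nothing is read from it.

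Depth limits the low levels: 2 counts in Saline rat 1 leave its level between 0.00479 and 0.143 CPM.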
